A study of Mus with 9 samples.

Results

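The genes described here encode the machinery that brings proteins into mitochondria, and the CHCHD proteins, in the mouse hippocampus. They were taken by symbol: every probe set (the short probes that together measure 1 transcript cluster) with a gene symbol beginning Timm, Tomm or Chchd followed by a digit. This gave 32 probe sets for 32 genes among the 22206 probe sets listed. The probe set of Tomm6 also carries the symbol Prickle4 and that of Timm10b also carries Dnhd1, so signal from those neighbours cannot be separated, and 836 of all probe sets carry more than 1 symbol.

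Hippocampal RNA of 9 mice was hybridized to Clariom S Mouse arrays. The methods give male SAMP8 mice of 16 weeks, an age before acclimatization, treatment and testing, so the mice were older when the tissue was taken. They state no separate age or sex for SAMR1, and 16 weeks was taken here for all 9 mice. The SAMR1 group (3 arrays) is the senescence-accelerated mouse resistant strain and received vehicle. The SAMP8 group (3 arrays) is the senescence-accelerated prone strain and received vehicle. The TG-treated SAMP8 group (3 arrays) is the same prone strain and received trigonelline (TG), a plant alkaloid derived from nicotinic acid, by mouth at 5 mg/kg for 30 days. All 3 groups were tested in a water maze for 8 days before the tissue was taken, and TG went on through that time. SAMR1 and SAMP8 are different strains, so ageing and genetic background cannot be told apart in a comparison of them. The vehicle is saline in the sample records and water in the methods, and the series text speaks of duplicate RNA samples where the records list 3 arrays per group. The description field of each record speaks of a macrophage cell line under another treatment, against the tissue and source fields, and it was not used.

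The deposited tables hold 1 average per group, written by the authors as log2 signal after normalization, with no value per array. Every level below is therefore the authors' average of 3 arrays without an SD, and no difference could be tested against the spread between mice. A difference is given on the log2 scale, and a gene is called higher or lower past the limit when its averages differ by more than 0.32. Each count is read against the share of all probe sets past the same limit. The SAMP8 averages were identical in both tables for all 22206 probe sets, so the comparison with TG and the comparison with SAMR1 share the same 3 SAMP8 arrays. The medians of all averages were 6.09 in SAMR1, 6.04 in SAMP8 and 6.07 in the treated group. Where 3 levels stand in a row below, they are those of SAMR1, SAMP8 and TG-treated SAMP8.

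Nearly all mitochondrial proteins are encoded in the nucleus, made in the cytosol and imported. The TOM complex is the entry gate of the outer membrane. Behind it, the small TIM chaperones carry hydrophobic precursors across the intermembrane space, the TIM22 complex inserts carrier proteins into the inner membrane, and the TIM23 complex passes precursors with a presequence to the matrix with the help of a heat shock protein motor. CHCHD proteins share paired cysteine motifs, and many are trapped in the intermembrane space by a disulfide relay. Chchd4 (Mia40) is the receptor and oxidase of that relay. Neurons depend on this system because of the high respiratory demand of synapses.

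Levels of different genes were not set against each other, because probe sets differ in brightness for the same amount of RNA. Across the array, 23 of the 32 genes lay above the median of average signal. Chchd5 and Timm8a2 lay near the bottom, at the 9.9 and 5.6 percentiles of all probe sets, and neither differed by more than 0.14 between any pair of groups.

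**Figure D1:**
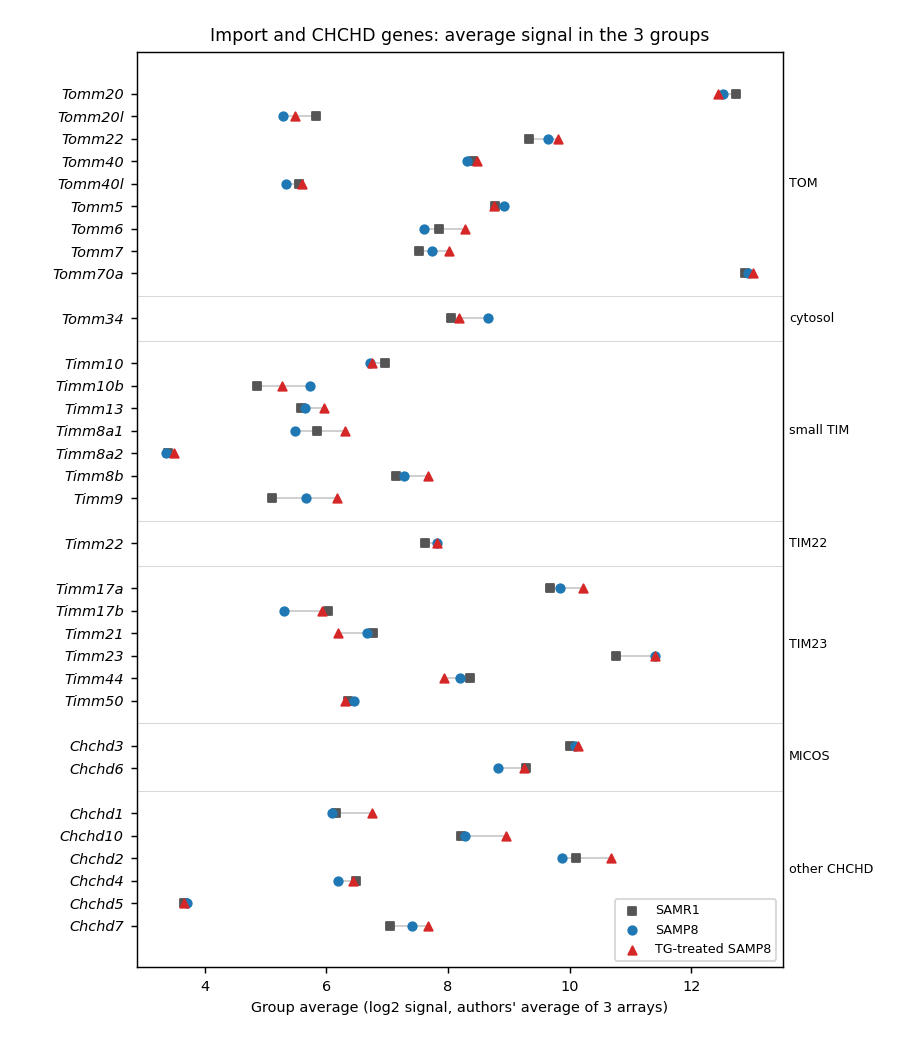
Average log2 signal of each of the 32 genes (horizontal axis) in SAMR1 (squares), SAMP8 (circles) and TG-treated SAMP8 (triangles), grouped by class, each point the authors' average of 3 arrays with no error available. The gap between groups was widest for Timm9, from 5.10 in SAMR1 to 6.17 in TG-treated SAMP8.

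Between TG-treated SAMP8 and SAMP8, 10 of the 32 genes were higher past the limit with TG, a share of 31.2%, where 15.1% of all probe sets were. Lower past the limit were 3 genes, or 9.4%, where 14.2% of all probe sets were. The median difference over the 32 genes was 0.185, beside 0.01 over all probe sets, and 22 genes were higher by any amount while 8 were lower. The CHCHD genes and the small TIM chaperones held 7 of the 10 that were higher.

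The 8 CHCHD genes had a median difference of 0.35 with TG, and 4 of them were higher past the limit and 0 lower. Chchd2 lies on chromosome 5 from 129881161 to 129887470 in the mouse build GRCm38, the build of all positions given here. It encodes a protein of mitochondria and, under stress, of the nucleus, and its human counterpart is a Parkinson's disease gene. Its levels were 10.11 in SAMR1, 9.87 in SAMP8 and 10.68 with TG, a 1.753-fold difference with TG at the 98.6 percentile of all probe sets. The TG-treated average was the highest of the 3 and the SAMP8 average the lowest. Chchd2 also has a pseudogene locus, Chchd2-ps, and whether that locus adds to the signal was not tested.

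Chchd10, the paralog of Chchd2 and the counterpart of a human gene of motor neuron disease and frontotemporal dementia, lies on chromosome 10 from 75933130 to 75937750. It stood at 8.22 in SAMR1, 8.28 in SAMP8 and 8.95 with TG, 1.591-fold higher with TG, while the untreated strains were only 0.06 apart. Chchd1, a protein of the small subunit of the mitochondrial ribosome, lies on chromosome 14 from 20703027 to 20704425. Its averages were 6.16, 6.10 and 6.75 in turn, the last 1.569-fold above SAMP8. In each of these 3 genes the TG-treated average lay above both untreated groups.

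The other CHCHD genes differed less with TG. Chchd6, which belongs to the MICOS complex that shapes the cristae, stood at 9.28 in SAMR1, 8.82 in SAMP8 and 9.25 with TG. This was 1.347-fold higher with TG and 1.376-fold lower in SAMP8 than in SAMR1, and both folds rest on the same SAMP8 average. Chchd3, the MICOS partner of Chchd6, had averages of 10.00, 10.09 and 10.13, listed likewise. Chchd4, the relay receptor, stood at 6.49, 6.19 and 6.44, with a difference of 0.25 with TG that stayed within the limit. The averages of Chchd7 were 7.05, 7.40 and 7.67, so it was 0.27 higher with TG than without. Those of Chchd5 were 3.66, 3.70 and 3.65.

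Of the 7 small TIM chaperones, 3 were higher past the limit with TG and 1 was lower, and their median difference was 0.32. All but Timm10 and Timm8b lay below the median signal of the array, and over those 2 the median difference was 0.215. Timm8a1, the mouse counterpart of the human deafness-dystonia gene, lies on chromosome X from 134537256 to 134541670. Its levels were 5.85 in SAMR1, 5.49 in SAMP8 and 6.30 with TG, which was 1.753-fold higher with TG. The closely related Timm8b stood at 7.14, 7.28 and 7.67 in the same order and was 1.31-fold higher with TG. Timm13, with which the Timm8 proteins form a complex, stood at 5.59, 5.64 and 5.96, at 0.32 or 1.248-fold just inside the limit and so not counted. The nearest gene beyond the limit was Timm17a, at 0.38.

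Timm9, on chromosome 12 from 71123172 to 71136708, forms with Timm10 the chaperone of carrier precursors. Timm9 stood at 5.10 in SAMR1, 5.67 in SAMP8 and 6.17 with TG, a difference of 0.50 with TG. Its partner Timm10 stood at 6.96, 6.71 and 6.75, a difference of 0.04. Timm9 was past the limit and its partner was not, a gap between genes that could not be tested, and the locus of Timm9 overlaps that of Tomm20l. Timm10b, which joins the chaperones to the TIM22 complex, went the other way, with 4.86 in SAMR1, 5.73 in SAMP8 and 5.27 with TG, 1.376-fold lower with TG. Timm8a2, at 3.40, 3.36 and 3.50, was near the bottom of the array's signal.

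The TIM complexes of the inner membrane showed no common direction with TG. Over the 6 genes of the TIM23 complex the median difference was -0.07, with 2 genes higher and 1 lower past the limit. Timm17b, on chromosome X from 7899336 to 7907652, and Timm17a, on chromosome 1 from 135301535 to 135313737, encode alternative subunits of the complex. Timm17b stood at 6.02 in SAMR1, 5.31 in SAMP8 and 5.93 with TG, 1.537-fold higher with TG. Timm17a stood at 9.68, 9.84 and 10.22 and was 1.301-fold higher.

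Timm23, for which the complex is named, was at 11.40 in both SAMP8 groups. Timm21, which links the complex to TOM and to the respiratory chain, stood at 6.76 in SAMR1, 6.67 in SAMP8 and 6.19 with TG, 1.395-fold lower with TG. Timm44, which anchors the mitochondrial heat shock protein to the complex, stood at 8.36, 8.20 and 7.93 in the same order. Its difference of -0.27 with TG was within the limit, as was the -0.14 of the presequence receptor Timm50, at 6.35, 6.45 and 6.31. Timm22, the channel for carrier proteins, was at 7.82 in both SAMP8 groups and at 7.63 in SAMR1.

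Of the 9 TOM genes, 1 was higher past the limit with TG and 0 were lower, with a median difference of 0.17. That gene was Tomm6, a small subunit that steadies the complex, on chromosome 17 from 47686645 to 47688386, where it overlaps Usp49, Frs3 and its own antisense gene Tomm6os. Its averages were 7.85 in SAMR1, 7.61 in SAMP8 and 8.28 with TG, 1.591-fold higher with TG. The other small subunits, Tomm7 and Tomm5, differed by 0.28 and -0.17. The channel Tomm40 stood at 8.41, 8.31 and 8.48.

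The TOM receptors lay closer together between treated and untreated SAMP8. Tomm20, a presequence receptor, stood at 12.74 in SAMR1, 12.53 in SAMP8 and 12.44 with TG. Tomm22, the central receptor, stood at 9.33, 9.65 and 9.81, and Tomm70a, the receptor for carriers, at 12.89, 12.94 and 13.02. The paralogs Tomm20l and Tomm40l differed by 0.20 and 0.27 with TG, and both lay below the median signal. Tomm34, a cytosolic cochaperone that hands precursors to TOM, lies on chromosome 2 from 164053538 to 164071178. It stood at 8.05 in SAMR1, 8.65 in SAMP8 and 8.18 with TG, 1.385-fold lower with TG.

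**Figure D2:**
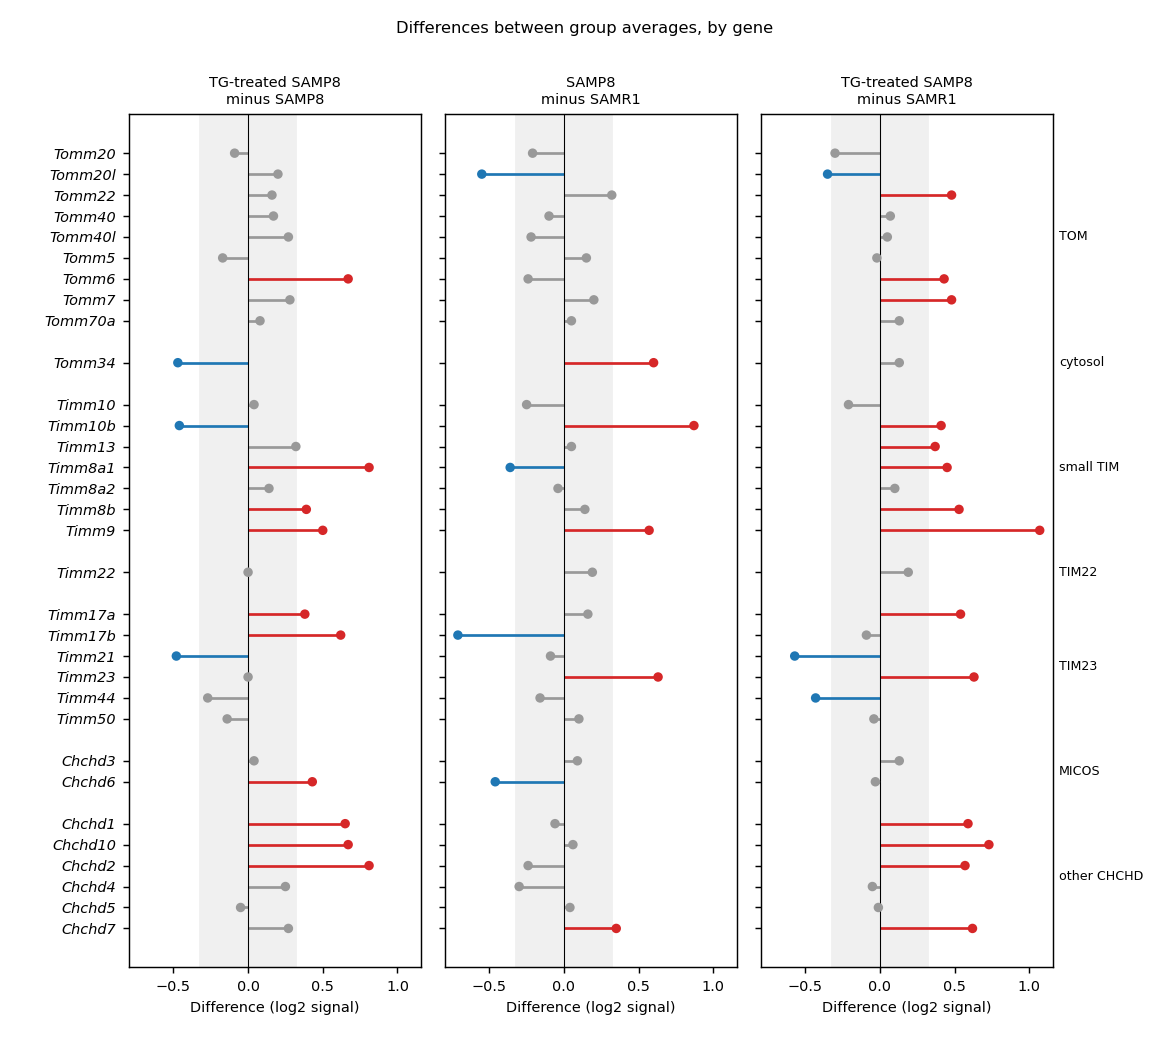
Difference between group averages (log2 signal, horizontal axis) for each gene in the 3 comparisons, with the grey band marking the limit of 0.32, red points above it, blue points below it and grey points within it. With TG against SAMP8 the median difference was 0.35 over the 8 CHCHD genes, 0.32 over the 7 small TIM genes and -0.07 over the 6 TIM23 genes.

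Between the untreated strains, 5 of the 32 genes in SAMP8 were higher past the limit than in SAMR1, a share of 15.6% where 16% of all probe sets were higher. Lower past it were 4 genes, or 12.5%, where 16.5% of all probe sets were. The median difference was 0.045, and no class had a median beyond 0.19 in either direction except the single cytosolic gene. With the probe sets below the median signal left out, 3 genes were higher and 1 was lower of the 23 left, where 23.5% and 10.9% of the probe sets kept were. Timm10b and Timm9 among the higher genes, and Timm17b, Tomm20l and Timm8a1 among the lower, lie among the dim probe sets.

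The gene with the widest gap between strains was Timm10b, 1.828-fold higher in SAMP8 than in SAMR1. Timm23, on chromosome 14 from 32180166 to 32201891, stood at 10.77 in SAMR1 and 11.40 in SAMP8, a 1.548-fold gap at a bright signal. Tomm34 was 1.516-fold higher in SAMP8, Timm9 1.485-fold and Chchd7 1.275-fold. Lower in SAMP8 were Timm17b by a factor of 1.636, Tomm20l by 1.464, Chchd6 by 1.376 and Timm8a1 by 1.283. Tomm22, at 0.32, fell just short of the limit. Subunits of 1 complex thus lay on both sides, with Timm23 higher and Timm17b lower in SAMP8.

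TG-treated SAMP8 and SAMR1 differ in strain and in treatment, and their difference is the sum of the other 2 by arithmetic. Here 14 genes were higher past the limit in TG-treated SAMP8, 43.8% against 16.1% of all probe sets, and 3 were lower, 9.4% against 16%. Above the median signal, 10 of 23 genes were higher and 2 lower, where 21.5% and 15.3% of the probe sets kept were. The excess was not particular to these genes. Of the mitochondrial ribosomal proteins 44.2% were higher and 2.6% lower in this comparison, and of the mitochondrial carriers 19.1% and 10.6%. The median over the 32 genes was 0.13, beside -0.01 over all probe sets. Timm9 stood 1.07 higher on the log2 scale, 2.099-fold, at the 99.1 percentile. Of the small TIM genes 5 were higher and 0 lower, with a median of 0.41, which was 0.16 over the 2 of them above the median signal. Of the 6 CHCHD genes outside MICOS 4 were higher and 0 lower, with a median of 0.58. The 3 lower genes were Timm21, Timm44 and Tomm20l. Chchd6 and Timm17b, lowest in SAMP8, were within 0.03 and 0.09 of SAMR1 when treated with TG, and Tomm34, highest in SAMP8, was within 0.13. Other genes past the limit between the strains did not lie so close to SAMR1. With TG, Timm23 stood 0.63 above SAMR1, Chchd7 0.62, Timm8a1 0.45 and Timm10b 0.41, beside the 1.07 of Timm9. The difference of Tomm20l from SAMR1 was -0.35. The differences of each gene from SAMP8 share the same SAMP8 average.

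A set of 44 other genes of import, MICOS and the relay was listed by role, of which 41 were found, on 42 probe sets. With TG against SAMP8, 12 of these 42 were higher past the limit and 3 were lower, with a median of 0.135, where 15.1% and 14.2% of all probe sets were higher and lower. The 13 substrates of the relay, small proteins with the same cysteine spacing as the CHCHD family, had a median of 0.22, with 6 higher and 1 lower. Higher among them were Cox17, the copper chaperone of cytochrome oxidase (10.50 in SAMR1, 9.96 in SAMP8 and 10.53 with TG), and the complex I subunits Ndufb7 (6.34, 6.04 and 6.64) and Ndufa8 (10.29, 10.62 and 11.09). Cmc4, whose probe set also carries Mtcp1, was lower with TG, at 6.53, 7.10 and 6.24. In the relay itself, Aifm1, which anchors Chchd4, was 1.424-fold lower with TG, at 8.39, 8.41 and 7.90. Gfer, the other partner gene listed for the relay, differed by -0.05, and Chchd4 by 0.25, both within the limit.

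The 7 partner genes listed under the import motor had differences of 0.06 to 0.80 with TG, with a median of 0.20. Higher past the limit were 2 of them, Hspa9 and Romo1. Romo1, at 0.34, is a membrane subunit of TIM23 rather than a part of the motor itself. Timm44, which also serves the motor but is counted among the TIM23 genes above, had a difference of -0.27. Hspa9, the mitochondrial heat shock protein that pulls precursors through TIM23, stood at 11.46 in SAMR1, 10.87 in SAMP8 and 11.67 with TG, 1.741-fold higher with TG. Hspe1, the small chaperonin, stood at 8.91, 8.99 and 9.78 and was 1.729-fold higher, whereas its partner Hspd1 stood at 12.82, 13.02 and 13.00. Immp1l, a peptidase of the inner membrane, was 1.647-fold higher with TG, at 9.38, 9.02 and 9.74. Pmpca, a subunit of the peptidase that removes presequences in the matrix, was 1.376-fold lower, at 11.49, 11.86 and 11.40, and was named after its values were seen, as the remaining one of the 3 partner genes lower past the limit. Vdac1, the outer membrane pore, stood at 14.22, 14.17 and 14.63, and was 1.376-fold higher with TG, past the limit. The core of MICOS, Immt, was 0.21 lower with TG, at 11.76, 12.06 and 11.85. Samm50, which inserts barrel proteins into the outer membrane, was 0.29 lower, at 8.46, 8.90 and 8.61. The differences of Immt and Samm50 were within the limit.

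Other families of mitochondrial genes were counted in the same way for comparison. Among 77 probe sets of mitochondrial ribosomal proteins (symbols Mrpl and Mrps), 32.5% were higher and 5.2% lower past the limit with TG, with a median of 0.17. Among 47 mitochondrial carriers (symbol Slc25a), which are clients of the small TIM and TIM22 pathway, 10.6% were higher and 14.9% lower, with a median of -0.02. The import genes thus had a share close to that of the ribosomal proteins and above that of the carriers, and no test of these differences was possible.

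**Figure D3:**
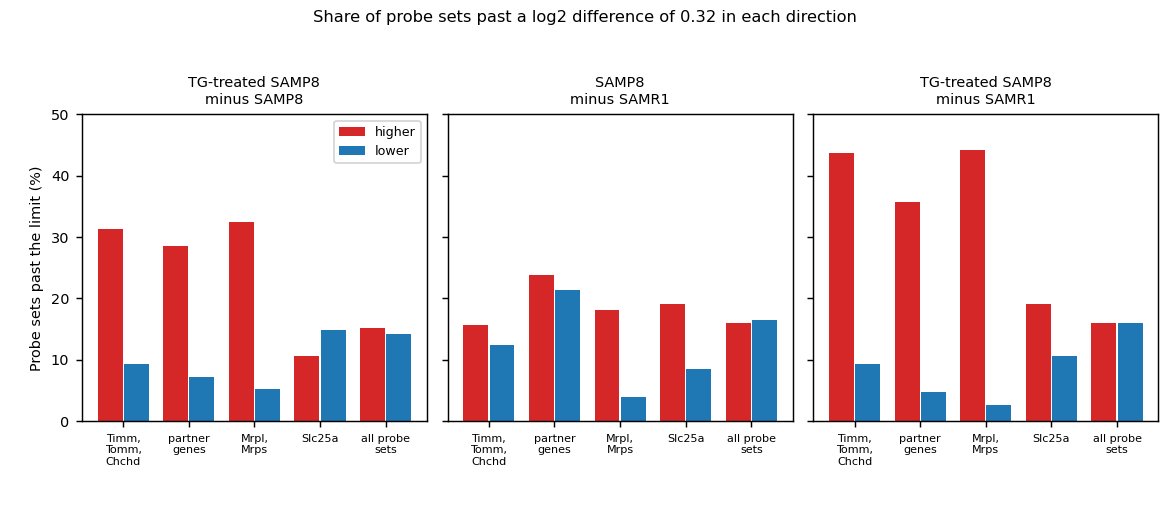
Share of probe sets (vertical axis, %) higher (red) or lower (blue) past the limit for the Timm, Tomm and Chchd genes (32), the 42 partner probe sets, the mitochondrial ribosomal proteins (77), the carriers (47) and all 22206 probe sets, in each comparison. With TG against SAMP8 the higher share was 31.2% for the Timm, Tomm and Chchd genes and 15.1% for all probe sets.

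Most import genes are short, and short genes as a whole stood higher with TG. Of the 32 genes, 11 span less than 5 kb in the genome and 17 span 5 to 20 kb. Of all probe sets for genes under 5 kb, 22.3% were higher past the limit with TG, and of those above the median signal 36.7% were, with a median of 0.18. Of the 11 import genes under 5 kb, 5 were higher and 0 lower, with a median of 0.32. From 5 to 20 kb, 16.5% of all probe sets were higher, with a median of 0.03, while 4 of the 17 import genes were higher and 3 lower, with a median of 0.17. The rank correlation (Spearman's rho) of genomic span with the difference was -0.36 over the 32 genes and -0.25 over the 20755 probe sets with a span, a description over genes that share the same arrays. The share of the import genes in the counts with TG that goes with short genes in general was not tested.

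The long exceptions were the MICOS genes Chchd6, which spans 212.5 kb on chromosome 6 from 89383146 to 89595652, and Chchd3, which spans 268.1 kb. Of all probe sets for genes over 50 kb, 7.5% were higher past the limit with TG, and Chchd6 was among them. Between the strains, 9.2% of the probe sets under 5 kb and 21.5% of those over 50 kb were higher in SAMP8, and above the median signal these shares were 18.7% and 24.9%. Between TG-treated SAMP8 and SAMR1, 16.7% of the probe sets under 5 kb were higher, and 35.4% of those above the median signal. Of the 11 import genes under 5 kb, 7 were higher and 0 lower in that comparison.

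**Figure D4:**
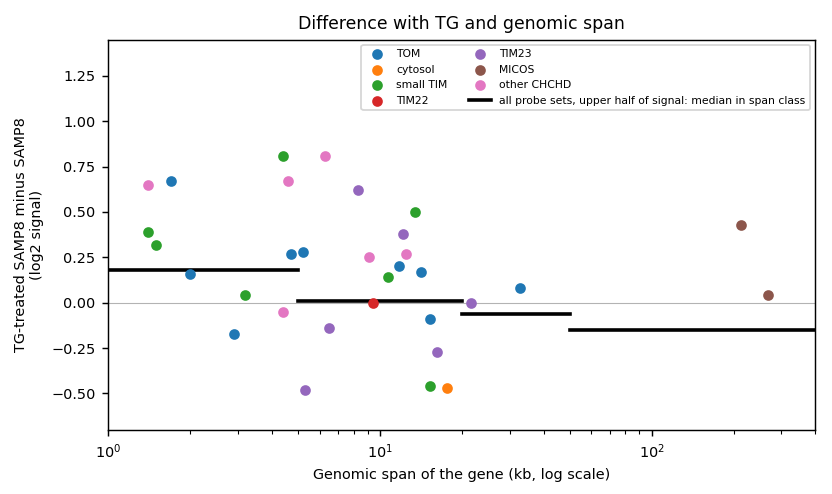
Difference between TG-treated SAMP8 and SAMP8 (log2 signal, vertical axis) against the genomic span of each of the 32 genes (kb, log scale), coloured by class, with black lines for the median of all probe sets above the median signal in 4 span classes. These medians ran from 0.18 under 5 kb to -0.15 over 50 kb, and the points lie on both sides of them.

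The samples were whole hippocampus, in which fewer cells of a type and less RNA per cell cannot be told apart. The hippocampal markers were present, with Neurod6 at 14.86, 14.85 and 14.88 and Prox1, of the dentate gyrus, at 11.26, 11.85 and 11.00, in the group order used above. With TG against SAMP8, 4 of 8 hippocampal markers were lower past the limit and 0 higher, and their summed linear signal was 42419 against 48425. The share of all probe sets lower past it was 14.2%. Of markers of neighbouring tissue, 3 of 6 for meninges were lower and 1 was higher (summed 1282 against 3050), and 3 of 5 for smooth muscle were lower and 1 was higher (169 against 397). For thalamus, 3 of 8 probe sets were lower and 0 higher (3177 against 6604), and for striatum 3 of 6 were lower and 0 higher (284 against 343). The choroid plexus list had 2 of 5 markers higher and 2 lower, with a median difference of -0.04. Its summed signal was greater with TG (1241 against 882), a sum led by Ttr, its brightest probe set (9.33 in SAMP8 and 10.05 with TG). Kcne2 was also higher (3.75 and 4.27), and Kl (6.84 and 6.05) and Folr1 (5.74 and 5.34) were lower. Each summed signal above likewise weighs the brightest probe sets most. Oligodendrocyte markers were higher in 2 of 5 and lower in 0, while astrocyte and microglial markers were each lower in 2 of 5 and higher in 0. Of 5 neuronal markers, 0 were past the limit in either direction. The lists also differed between the strains. In SAMP8 against SAMR1, 6 of 8 thalamus probe sets were higher past the limit and 0 lower. Hippocampal (3 of 8) and astrocyte (3 of 5) markers were likewise higher only. For meninges 2 were higher and 3 lower, and for oligodendrocytes 1 and 2. Between TG-treated SAMP8 and SAMR1, 6 thalamus probe sets were higher and 2 lower, and 0 meninges markers were higher and 3 lower. No marker has a true 0 on this scale, and the part of tissue composition in the results for the import genes was not tested.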

How the data were processed

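Per the methods and the series text, the authors hybridized hippocampal RNA to Clariom S Mouse arrays and summarized the intensities by SST-RMA in the Transcriptome Analysis Console. The deposited tables, 1 for each of 2 comparisons, hold the authors' group averages as log2 signal under an mm10 annotation. They also hold the authors' fold changes, p-values and adjusted p-values, which were not used. Groups follow the sample records.

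Differences were taken between the deposited averages. With 1 average per group no test, SD or interval could be computed, and the number of arrays limits the precision. The 32 genes, their classes and the lists of partner and marker genes were chosen with earlier results of these data known. All 32 genes are named. Partner genes named are the 8 with the largest absolute difference with TG, plus Vdac1, Hspa9 (also among the 8), Hspd1, Immt and Samm50. Pmpca, Romo1 and Gfer were named after their values were seen. Genomic span was read from the RefSeq table of GRCm38.p6, which placed 93.5% of probe sets, and was chosen after seeing the data in place of protein length. Protein length, cysteine motifs and promoter motifs were not analysed here. A gene was counted when its averages differed by more than 0.32 (log2). The counting was checked on simulated averages without noise, which tests the arithmetic of the count and not the variation between arrays or mice. Alternatives were other fold limits, centring, a filter on low signal, 1 probe set per gene and removal of shared probe sets. Computation used scipy 1.17.1, matplotlib 3.10.9, pandas 2.3.3 and numpy 2.4.6 under Python 3.11.15.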

Additional observations from a re-analysis of the deposited data

How the results depend on the processing

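With the limit at 1.1-fold, 19 import and CHCHD genes were higher and 6 lower with TG against SAMP8, where 32.4% and 31.0% of all probe sets were. At that limit 11 were higher and 11 lower in SAMP8 than in SAMR1, where 33.0% and 32.5% of all probe sets were, and 5 were lower in TG-treated SAMP8 than in SAMR1, where 33.3% were. At 1.5-fold, 6 were higher and 0 lower with TG (4.5% and 3.7% of all probe sets), 3 were higher and 1 lower in SAMP8 than in SAMR1 (5.0% and 6.1%), and 5 were higher and 0 lower in TG-treated SAMP8 than in SAMR1 (5.6% and 4.8%). Without the probe sets below the median signal, 23 genes remained, 3 of them higher and 1 lower in SAMP8 than in SAMR1, where 23.5% and 10.9% of the probe sets kept were, and 7 higher and 2 lower with TG, where 14.3% and 19.2% were. Leaving out probe sets with more than 1 symbol moved no count or median of the 32 genes by over 1.5 times. Centring on the median of all probe sets and using 1 probe set per symbol did not either, but could hardly have done so. Centring shifted each difference by 0.01 or less, and each of the 32 genes has 1 probe set. Among values for single genes, classes and partners, 127 stayed within 1.5 times and 14 moved further. Single genes and partners were run again only under centring, so these counts say little about their stability. The moves under centring were of differences near 0. All other moves were of class medians under the filter on low signal, where no median past the limit turned sign. Between SAMP8 and SAMR1 that filter turned the sign of the medians of the TOM genes (from -0.10 to 0.05) and of the small TIM genes (from 0.05 to -0.06, with 2 left), and between TG-treated SAMP8 and SAMR1 it took the small TIM median from 0.41 to 0.16. No paired analysis was possible because the tables hold 1 average per group. Depth has no counterpart in arrays, and signal over background was not analysed here.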
